A study of Mus musculus with 18 samples.

Results

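The genes described here are 55 components of the folding and secretion machinery of the endoplasmic reticulum (ER), chosen by name from the 55491 genes of a bulk RNA-Seq count table. They were followed in 18 libraries of splenic and Peyer's patch (PP) B cells. All mice were female BALB/cJ mice that entered the study at 4 to 6 weeks of age and were sensitized with 20 μg of the egg allergen ovalbumin (OVA) and 1 mg of the adjuvant alum on days 0 and 14. On days 28 and 42 they received 100 μL PBS, 100 μg soluble OVA, or 2.5 mg of OVA-encapsulating nanoparticles (OVA NPs), and B cells were collected on day 44, at 10 to 12 weeks of age. Each of the 6 combinations of tissue and treatment had 3 libraries, which the labels call biological replicates. There was no group of unsensitized mice, so every value below comes from a sensitized animal. B cells were obtained by negative selection, and the PP, unlike the spleen, were digested with enzymes beforehand, so tissue and dissociation cannot be told apart.

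Secreted and membrane proteins, antibodies among them, enter the ER through the Sec61 channel, lose their signal peptide, gain N-linked glycans, and are folded by chaperones and disulfide isomerases before COPII vesicles carry them to the Golgi. Proteins that fail to fold are returned to the cytosol and degraded. When unfolded proteins accumulate, the sensors IRE1, PERK, and ATF6 start the unfolded protein response, which raises the transcription of much of this machinery, and B cells that become plasma cells expand it greatly.

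The 55 genes fall into 9 roles. The HSP70 and HSP90 chaperone group holds *Hspa5*, *Hsp90b1*, *Hyou1*, *Dnajb9*, *Dnajb11*, *Dnajc3*, *Sdf2l1*, and *Manf*. *Creld2*, an ER stress protein, was counted with this group. The lectin chaperones are *Calr* and *Canx*. The disulfide isomerases and oxidases are *Pdia3*, *Pdia4*, *Pdia5*, *Pdia6*, *P4hb*, *Ero1l*, and *Ero1lb*. ER-associated degradation is represented by *Herpud1*, *Sel1l*, *Syvn1*, *Derl1*, *Derl2*, *Edem1*, and *Edem2*. Signal recognition and translocation is the largest group, with *Sec61a1*, *Sec61b*, *Sec61g*, *Sec62*, *Sec63*, *Tram1*, *Ssr1* to *Ssr4*, *Srp9*, and *Srp54a*. Signal peptidase is represented by *Spcs1*, *Spcs2*, *Spcs3*, *Sec11a*, and *Sec11c*, oligosaccharyltransferase by *Rpn1*, *Rpn2*, *Ddost*, *Dad1*, and *Ostc*, and the COPII coat by *Sec23b*, *Sec24d*, and *Sar1b*. The 5 regulators of the unfolded protein response are *Atf4*, *Atf6*, *Ern1* (which encodes IRE1), *Ddit3* (CHOP), and *Eif2ak3* (PERK). All 55 passed the filter on low counts in every comparison. *Pdia5* was close to the limit of detection, with 3 to 34 counts per library, and *Srp54a* has near-identical copies that could share its reads.

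The promoters of these genes are shown first, because ATF6 is known to act through a short sequence, the ER stress response element (ERSE), which is made of CCAAT and CCACG separated by any 9 bases. RefSeq promoters of 300 bases (GRCm38.p6) were matched for 45 of the 55 genes and searched on both strands. An exact ERSE was found in 9 of the 45 (20%), compared with 37 of all 27025 genes with a promoter (0.137%). The 9 are part of the 37. Because the 55 genes were chosen by name for their role, this contrast describes that choice and is not a result of the libraries. The sites are printed 5′ to 3′ on the stated strand of the genome, with their fixed letters in capitals. They are shown because *Creld2*, *Hsp90b1*, *Pdia6*, and *Hspa5* among these genes had large changes in the spleen. *Dnajc3*, *Ero1lb*, and *Syvn1* were not called there.
Hspa5, chr2:34772020-34772048, forward strand: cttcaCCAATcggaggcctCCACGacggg
Hsp90b1, chr10:86705633-86705661, reverse strand: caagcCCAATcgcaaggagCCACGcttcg
Hsp90b1, chr10:86705528-86705556, forward strand: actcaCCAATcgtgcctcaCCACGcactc
Dnajc3, chr14:118937822-118937850, forward strand: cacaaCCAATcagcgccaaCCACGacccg
Creld2, chr15:88819515-88819543, reverse strand: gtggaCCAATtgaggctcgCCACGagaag
Calr, chr8:84847070-84847098, forward strand: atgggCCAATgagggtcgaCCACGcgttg
Canx, chr11:50325795-50325823, reverse strand: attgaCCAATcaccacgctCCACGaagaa
Pdia6, chr12:17266486-17266514, forward strand: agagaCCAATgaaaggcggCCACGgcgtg
Ero1lb, chr13:12565677-12565705, reverse strand: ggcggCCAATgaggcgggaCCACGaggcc
Syvn1, chr19:6046527-6046555, forward strand: cgcaaCCAATcggcggtagCCACGggaac

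The related ERSE-II, ATTGG and CCACG separated by any 1 base, was found in 2 of the 45 promoters (4.44%) and in 0.0444% of all genes. Its sites are also shown with the fixed letters in capitals.
Dnajb11, chr16:22857847-22857867, forward strand: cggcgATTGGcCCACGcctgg
Herpud1, chr8:94386372-94386392, forward strand: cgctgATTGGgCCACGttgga

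An XBP1-type element, TGACGTGG, was found in *Sec24d* alone among the 45 (2.22%, against 0.714% of all genes), and a CHOP and ATF4 type element, TGATGCAA, in *Herpud1* alone (2.22%, against 1.03%). These matches describe the letters in the window and are not evidence of binding.

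**Figure D1:**
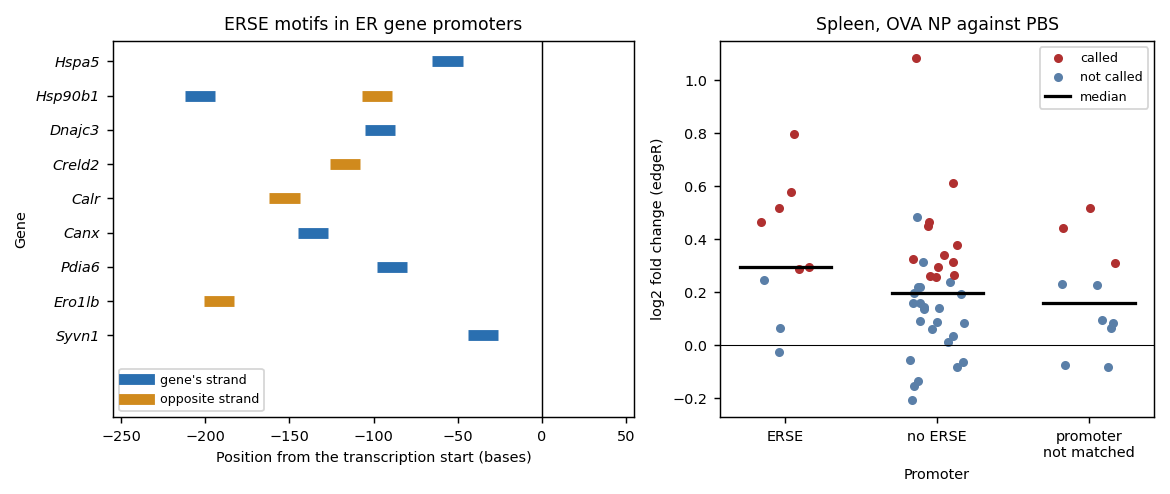
Left: the position of each exact ERSE, in bases from the transcription start (vertical line), in the 9 promoters that hold one, colored by strand. Right: edgeR log2 fold change of each of the 55 genes in splenic B cells, OVA NP against PBS, by promoter class, with the median as a bar; the medians were 0.29 with an ERSE, 0.20 without, and 0.16 where no promoter was matched.

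All ERSE sites lay upstream of the start, with centers 35 (*Syvn1*) to 203 (*Hsp90b1*) bases from it, and *Hsp90b1* carried 2 on opposite strands. In the spleen after OVA NPs, 6 of the 9 genes with an ERSE and 12 of the 36 without one were called higher. The test is described below and called 15% of all tested genes there, 8.6% higher. After soluble OVA in the spleen the counts were 4 of 9 and 11 of 36, against 10.5% of all genes called higher. In PP the counts were 0 and 0 after OVA NPs, where 0% of all genes were called. After soluble OVA in PP, 3 of the 9 were called higher, and of the 36, 9 higher and 2 lower. Of all genes, 13.5% were called higher there and 13.9% lower. Between OVA NPs and soluble OVA in PP, 1 of the 9 was called higher and 2 lower, and 4 and 9 of the 36. The shares of all genes in that comparison were 13.8% higher and 16.3% lower. *Sdf2l1*, which had the largest change in the spleen, has no exact ERSE in its window, nor do *Sec24d*, *Pdia4*, *Ddit3*, and *Sar1b*, which had large changes elsewhere.

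Library totals ran from 14177253 to 30052297 counts, and 3 counts corresponded to between 0.0998 and 0.212 CPM, counts scaled to library size, which covers counting error only. The B cell markers *Cd79a* and *Ms4a1* were at 902 to 1918 and 945 to 1472 CPM over the 18 libraries. The PP libraries also contained transcripts of intestinal epithelium, with 8 marker genes that summed to 226 to 769 CPM in PBS-treated mice, 287 to 1165 after soluble OVA, and 540.2 to 1066 after OVA NPs. In the 9 spleen libraries the same genes summed to between 7.15 and 10.1 CPM, and *Fabp2*, *Krt20*, and *Lypd8* were at 0. The share of mitochondrial counts was 2.82% to 3.41% in the spleen. In PP it was 5.41% to 7.67% after PBS, 4.97% to 6.02% after soluble OVA, and 9.08% to 9.80% after OVA NPs, so the OVA NP libraries lay above all others, and its part in the PP results below was not tested.

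In the spleen of PBS-treated mice, the most abundant transcripts per kilobase of exon were those of *Calr*, a calcium-binding lectin chaperone, at 199.7 ± 10.2 CPM per kb (SD, n = 3), and *Hsp90b1*, the ER form of HSP90, at 117.4 ± 8.61. *Pdia3*, the isomerase that works with the lectin chaperones, followed at 101.8 ± 2.44 CPM per kb. *Atf4* and *Hspa5* had 83.9 ± 4.66 and 79.7 ± 2.50 CPM per kb, a difference within their spread. *Calr* ranked first in all 6 groups.

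The summed level of the machinery was higher in the spleen after either form of OVA. Summed over the 55 genes, the spleen libraries held 6563 to 6695 CPM after PBS, 7436 to 7610 after soluble OVA, and 7789 to 7871 after OVA NPs. The 3 groups did not overlap. Abundant genes weigh most in this sum. On average, *Calr*, *Hsp90b1*, *Hspa5*, and *Pdia3* made up 25.7% of it after PBS, 28.1% after soluble OVA, and 29.4% after OVA NPs. In PP the sums were 6925 to 7359 CPM after PBS, 7545 to 8035 after soluble OVA, and 7152 to 7765 after OVA NPs, and the OVA NP libraries overlapped with both other groups. In bulk samples, a change in the number of cells of a type and a change in RNA per cell cannot be told apart.

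Comparing OVA NP–treated with PBS-treated mice asks how splenic B cells differed after OVA was given in nanoparticles. The PBS-treated mice received no OVA in their treatment doses, and no group received nanoparticles without OVA. The comparison therefore cannot separate the particle from the OVA it carried. Of the 55 genes, 21 were called higher and 0 lower (38.2%), where a call required an adjusted p under 0.05 by edgeR's quasi-likelihood test and an absolute log2 fold change above 0.25. By the same rule 15% of the 14200 tested genes were called, 8.6% higher and 6.35% lower. The median log2 fold change was 0.22 over the 55 genes and 0.00062 over all tested genes. The PBS and OVA NP libraries did not overlap for 33 genes that were higher, against 18.7% of all genes, and for 1 that was lower, against 18.6%.

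Of the 9 genes in the HSP70 and HSP90 chaperone group, *Creld2* included, 7 were called. *Sdf2l1*, a small ER protein of the HSP70 complex, was at 22.4, 16.6, and 22.6 CPM in the 3 PBS libraries and 47.9, 41.2, and 41 in the 3 OVA NP libraries. The groups did not overlap, and the log2 fold change was 1.09 ± 0.12 (SE), adjusted p = 1.78e-04. *Creld2*, a secreted ER stress protein, was at 27.3, 23.6, and 22.5 CPM after PBS and 42, 45.6, and 39.6 after OVA NPs (0.80 ± 0.085 (SE), adjusted p = 2.29e-05).

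*Hspa5* encodes BiP, the main HSP70 of the ER and a carrier of unassembled immunoglobulin heavy chains. It was at 344, 325, and 342 CPM after PBS and 470.4, 449, and 469.5 after OVA NPs, with a log2 fold change of 0.46 ± 0.053 (SE), adjusted p = 3.66e-05. *Hsp90b1* was at 513, 447, and 461 CPM and then 706, 724, and 684 (0.58 ± 0.061 (SE), adjusted p = 2.13e-05). Neither gene had overlapping groups. *Manf*, a secreted protein that binds BiP, had a log2 fold change of 0.52, and *Hyou1* and *Dnajb11*, an HSP110-type chaperone and an HSP40 cochaperone of BiP, had 0.31 and 0.32. *Dnajc3* (0.25) had an adjusted p of 0.0078 without passing the fold cutoff, and *Dnajb9* was at 0.013 (adjusted p = 0.932).

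Both lectin chaperones rose, *Calr* by 0.29 ± 0.057 (SE), adjusted p = 0.00258, and *Canx* by 0.29 ± 0.057 (SE), adjusted p = 0.00205. Of the disulfide enzymes, 3 of 7 were called. *Pdia6* was at 156, 141, and 155 CPM after PBS and 221, 220.1, and 205 after OVA NPs (0.52 ± 0.058 (SE), adjusted p = 3.37e-05). *Pdia3* and *Pdia4* had log2 fold changes of 0.45 and 0.33. The oxidases *Ero1l* (0.19) and *Ero1lb* (-0.024) were not called.

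Of the 12 signal recognition and translocation genes, 4 were called. *Sec61b* and *Sec61g*, the small subunits of the Sec61 channel, were both called, while *Sec61a1*, which encodes the pore itself, had a log2 fold change of 0.064 ± 0.054 (SE), adjusted p = 0.446. *Sec61b* was at 36.7, 37.8, and 38.8 CPM after PBS and 51.2, 54.4, and 50.4 after OVA NPs (0.47 ± 0.062 (SE), adjusted p = 1.30e-04). *Sec61g* was at 13.2, 13.6, and 13.6 and 21.2, 24.2, and 16.3 CPM (0.61 ± 0.13 (SE), adjusted p = 0.00443). These libraries did not overlap for either gene. Of the translocon-associated proteins, *Ssr1* (0.30) and *Ssr2* (0.44) were called, and *Ssr3* (0.22) and *Ssr4* (0.16) were not.

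Signal peptidase had 2 of 5 genes called, *Spcs1* (0.26) and *Spcs2* (0.26), both close to the fold cutoff, and *Spcs3* and *Sec11c* were at 0.23 and -0.075. With 1 library removed, the call of *Spcs1* was lost in 3 of 6 refits and that of *Spcs2* in 2. Both were also lost with no filter on low counts. Of oligosaccharyltransferase only *Rpn1* was called (0.34 ± 0.058 (SE), adjusted p = 8.47e-04). Of ER-associated degradation only *Edem1*, a lectin that marks misfolded glycoproteins, was called (0.38 ± 0.05 (SE), adjusted p = 1.13e-04), and *Herpud1* was at -0.064. *Sar1b*, the GTPase that starts COPII coats, had 0.26 with an adjusted p of 0.0457, and this call was lost when any 1 of the 6 libraries was left out. *Sec24d*, a cargo adaptor, had 0.49 ± 0.17 (SE), adjusted p = 0.062.

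None of the 5 regulators was called in this comparison. Their log2 fold changes were -0.056 for *Atf4*, -0.083 for *Atf6*, 0.034 for *Ern1*, -0.15 for *Ddit3*, and -0.21 for *Eif2ak3*. *Eif2ak3* had an adjusted p of 0.017 and was the 1 gene whose OVA NP libraries all lay below the PBS libraries, at 106, 107, and 120.3 CPM against 127, 131, and 129.

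**Figure D2:**
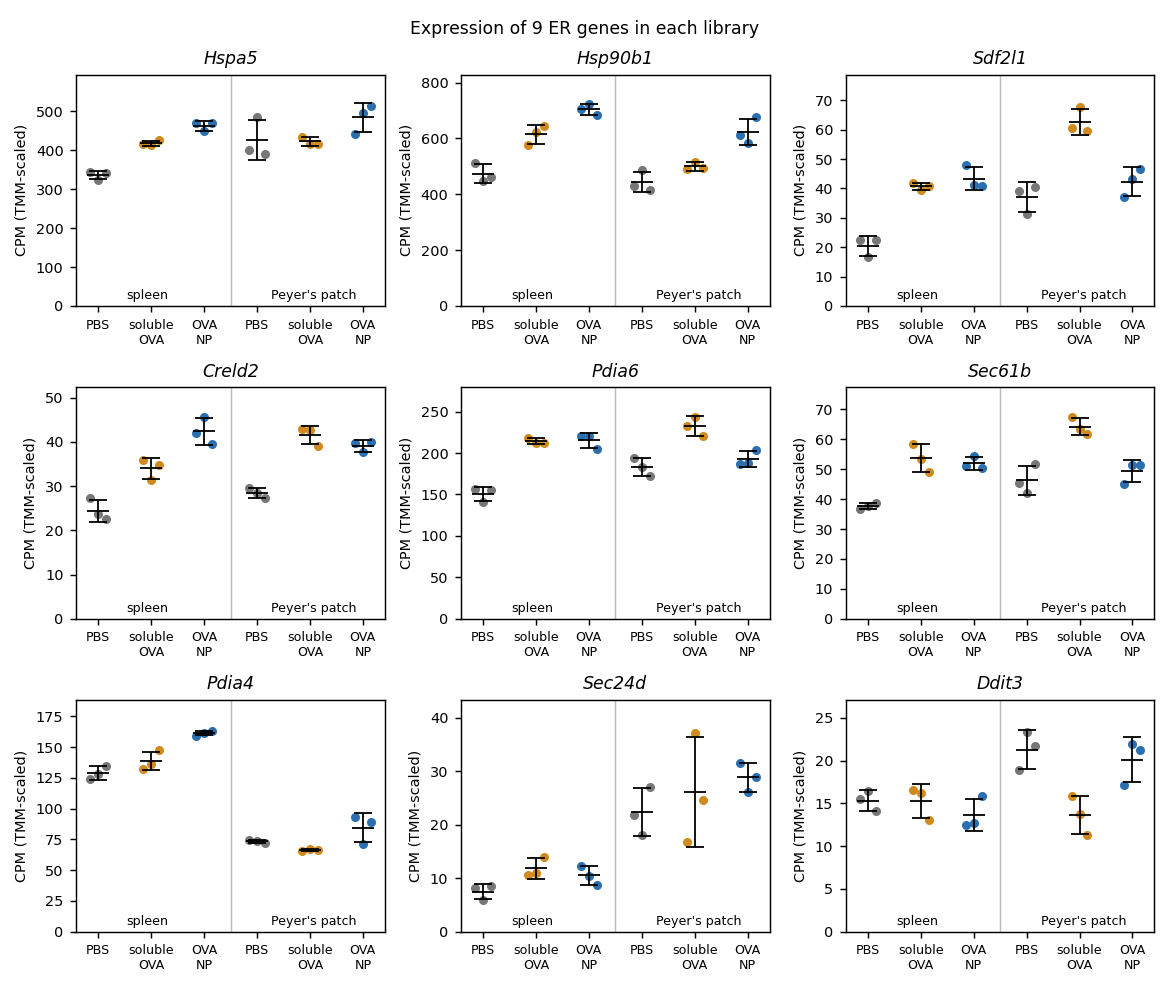
TMM-scaled CPM of 9 ER genes in each of the 18 libraries, by tissue and treatment; points are libraries and bars the mean and SD of 3. *Hspa5*, *Hsp90b1*, *Sdf2l1*, *Creld2*, *Pdia6*, and *Sec61b* were above the PBS libraries in the spleen after both forms of OVA, and *Pdia4* was lower in every PP library than in any spleen library.

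Markers of other B cell states moved in the same libraries. Germinal center genes were called higher for 10 of 11 tested, with a summed level of 79.1 to 173 CPM after PBS and 435 to 517 after OVA NPs, and all 12 proliferation genes were called higher, with 661 to 758 CPM after PBS and 1352 to 1783 after OVA NPs. Plasma cell genes were called higher for 6 of 11 tested, with 579.8 to 649 CPM after PBS and 869 to 895 after OVA NPs. Here and below, this list includes *Xbp1*, *Mzb1*, *Derl3*, and *Fkbp11*, which also belong to the wider ER pathway, so it is not independent of that pathway. None of these markers was at 0 in all libraries of a group, and their part in the change of the ER genes was not tested.

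Soluble OVA was compared with the same PBS libraries, so the 2 comparisons are not independent. In the spleen 18 of the 55 genes were called higher and 0 lower (32.7%), against 17.2% of all 14128 tested genes (10.5% higher and 6.72% lower), and the median log2 fold change was 0.15. The libraries did not overlap for 29 genes that were higher (19% of all genes) and 3 that were lower (18.8%). *Sdf2l1* was at 41.7, 39.5, and 40.9 CPM (0.99 ± 0.11 (SE), adjusted p = 2.26e-05), *Pdia6* at 219, 212, and 212 (0.51 ± 0.061 (SE), adjusted p = 4.82e-05), and *Sec61b* at 58.3, 53.5, and 49.1 (0.51 ± 0.074 (SE), adjusted p = 2.95e-04).

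*Sec24d* was called after soluble OVA, with 8.19, 5.86, and 8.5 CPM after PBS and 10.6, 10.9, and 14 after soluble OVA (0.66 ± 0.16 (SE), adjusted p = 0.0115). This call was lost in 1 of 6 refits with 1 library removed and in 1 fit to all 18 libraries. *Creld2* (0.48), *Sec61g* (0.50), *Hsp90b1* (0.38), *Hspa5* (0.31), and *Rpn1* (0.27) were also called. *Calr* (0.21 ± 0.068 (SE), adjusted p = 0.0422) stayed under the fold cutoff, and *Pdia4* (0.11 ± 0.063 (SE), adjusted p = 0.265) was not called. Again none of the 5 regulators was called, with log2 fold changes between -0.17 for *Eif2ak3* and 0.075 for *Atf4*. Germinal center genes were called higher for 12 of 12 and proliferation genes for 12 of 12 in these libraries, with sums of 484 to 757 and 1511 to 1682 CPM. Plasma cell markers were called higher for 6 and lower for 1 of 11, with 750.1 to 844 CPM. Monocyte and macrophage markers were called lower for 4 of 7, with 96.4 to 237 CPM after PBS and 40.8 to 84.6 after soluble OVA. The part of these markers was not tested.

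Set directly against each other, OVA NPs and soluble OVA gave 0 calls among the 55 genes in the spleen, where 0.238% of 13840 tested genes were called. At an unadjusted p under 0.05 there were 5 (8.66% of all genes), and DESeq2 also called 0. The libraries did not overlap for 9 genes that were higher after OVA NPs (6.58% of all genes) and 1 that was lower (7.5%). The smallest adjusted p was that of *Creld2*, at 0.32 ± 0.084 (SE), adjusted p = 0.227, with 42, 45.6, and 39.6 CPM after OVA NPs and 36, 31.5, and 34.7 after soluble OVA. *Pdia4* (0.22 ± 0.067 (SE), adjusted p = 0.304) and *Hsp90b1* (0.20 ± 0.077 (SE), adjusted p = 0.456) followed. These p-values do not show that the 2 treatments act alike.

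**Figure D3:**
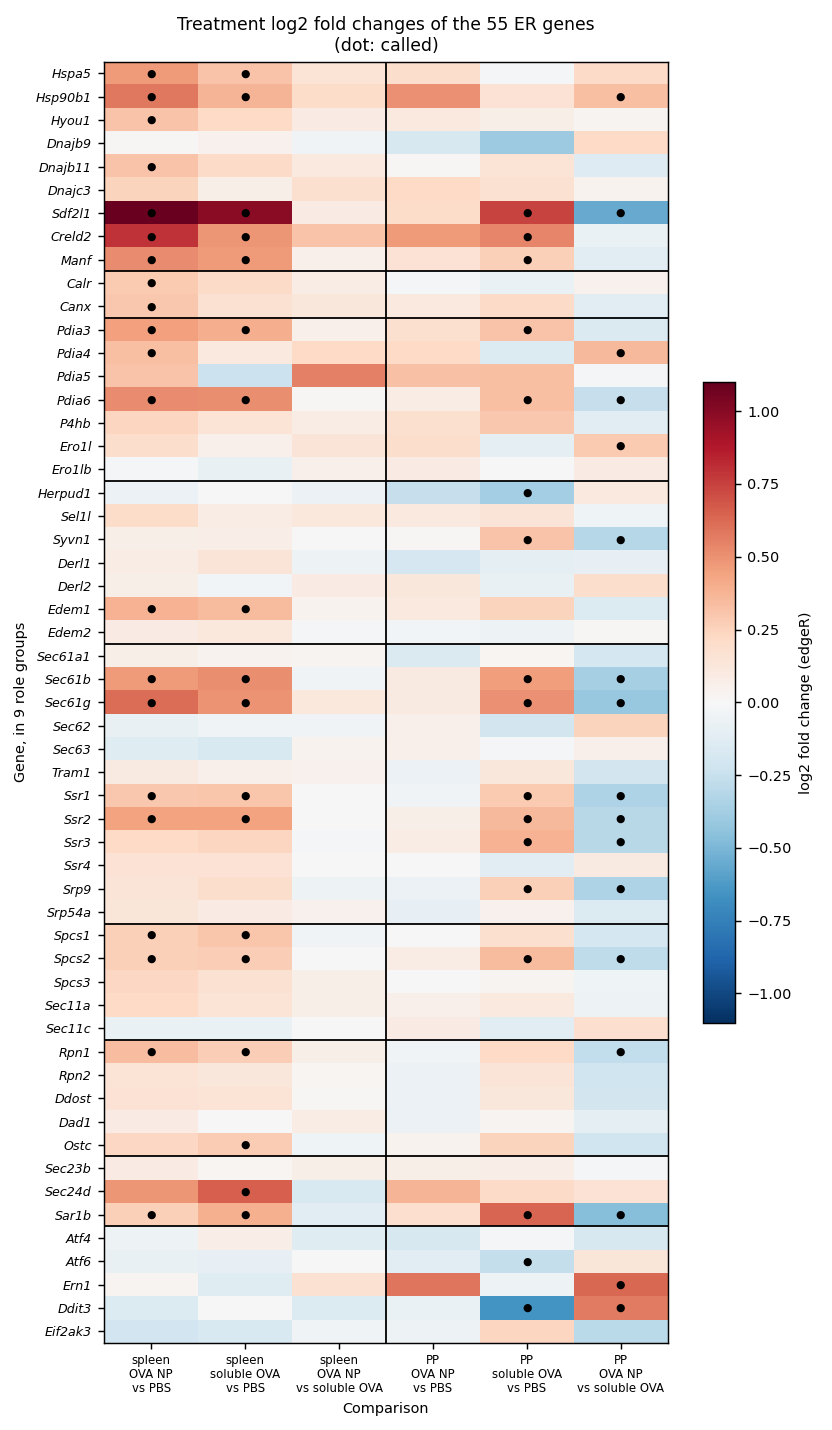
Log2 fold change (edgeR, color scale from -1.1 to 1.1) of the 55 ER genes (rows, in 9 role groups separated by lines) in the 6 treatment comparisons (columns), with a dot for each called gene. Calls in the spleen against PBS are all higher; in PP they appear only in the comparisons with the soluble OVA libraries.

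In PP, the comparison of OVA NPs with PBS gave 0 calls among the 55 genes and 0% of all 15798 tested genes. At an unadjusted p under 0.05 there were 7 (9.96% of all genes), and DESeq2 called 3, *Hsp90b1*, *Creld2*, and *Ern1*. The libraries did not overlap for 8 genes that were higher (6.79% of all genes) and 2 that were lower (10.5%). *Hsp90b1* was at 429, 486, and 416 CPM after PBS and 613, 582, and 676 after OVA NPs (0.50 ± 0.082 (SE), adjusted p = 0.125). *Creld2* was at 29.6, 28.5, and 27.3 and 39.8, 37.6, and 40.0 CPM (0.47 ± 0.081 (SE), adjusted p = 0.142). *Ern1*, the gene of the sensor IRE1, was at 21.9, 19.7, and 24.7 CPM after PBS and 35.7, 33.6, and 29.8 after OVA NPs (0.59 ± 0.12 (SE), adjusted p = 0.224). The libraries of these 3 genes did not overlap. *Sdf2l1* had 0.20 ± 0.12 (SE), adjusted p = 0.598, and *Hspa5* had 0.20 ± 0.091 (SE), adjusted p = 0.516.

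Soluble OVA gave 17 calls among the 55 genes in PP (30.9%), against 27.4% of all 15792 tested genes. The share called in either direction was thus close to the background. Of the 17 calls, 14 were higher and 3 lower, whereas of all genes 13.5% were called higher and 13.9% lower. With DESeq2's size factors in place of TMM, 15 ER genes were called higher and 1 lower. The libraries did not overlap for 24 ER genes that were higher (22.1% of all genes) and 7 that were lower (23%). The median log2 fold change was 0.14 over the 55 genes and -0.017 over all genes. *Sdf2l1* was at 39.2, 31.3, and 40.6 CPM after PBS and 60.7, 67.8, and 59.6 after soluble OVA (0.74 ± 0.11 (SE), adjusted p = 0.0014). *Sar1b* was at 28.7, 28.3, and 29.6 and then 40.7, 51.6, and 44.2 CPM (0.64 ± 0.10 (SE), adjusted p = 0.00192). *Creld2* was at 42.9, 42.7, and 39.2 CPM after soluble OVA (0.53 ± 0.08 (SE), adjusted p = 0.0014). Each of these 3 genes was higher in every soluble OVA library than in any PBS library.

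Of the 12 signal recognition and translocation genes, 6 were called higher, with log2 fold changes of 0.50 for *Sec61g*, 0.46 for *Sec61b*, 0.38 for *Ssr3*, 0.36 for *Ssr2*, 0.29 for *Ssr1*, and 0.26 for *Srp9*, which belongs to the signal recognition particle. *Hspa5* (-0.023 ± 0.086 (SE), adjusted p = 0.869), *Hsp90b1* (0.16 ± 0.075 (SE), adjusted p = 0.151), and *Calr* (-0.073 ± 0.061 (SE), adjusted p = 0.423) were not called. Without the second PP PBS library, 6 genes were called that the reported fit did not call. They were *Hsp90b1*, *Canx*, *Edem1*, *Rpn1*, *Ostc*, and *Eif2ak3*. The genes called lower were 2 regulators and 1 gene of degradation. *Ddit3*, the stress-induced transcription factor CHOP, was at 18.9, 23.3, and 21.7 CPM after PBS and 15.8, 13.7, and 11.3 after soluble OVA (-0.65 ± 0.14 (SE), adjusted p = 0.00945). *Herpud1* had -0.37 ± 0.11 (SE), adjusted p = 0.029, and *Atf6* had -0.27 ± 0.083 (SE), adjusted p = 0.0415. The calls of *Herpud1* and *Atf6* each disappeared in 5 of the 6 refits with 1 library removed.

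All 12 proliferation genes and 11 of 12 germinal center genes were called higher in these PP libraries, with sums of 4494 to 4847 and 3394 to 3482 CPM against 1994 to 2460 and 1841 to 2214 after PBS. Immediate-early genes, which are rapidly induced by stimulation, were called lower for 10 of 12, with 3353 to 5522 CPM after PBS and 1605 to 2190 after soluble OVA. The part of these markers in the ER gene values was not tested.

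Between OVA NPs and soluble OVA in PP, 17 of the 55 genes were called (30.9%), 5 higher and 12 lower after OVA NPs, against 30.1% of all 15599 tested genes (13.8% higher and 16.3% lower). The libraries did not overlap for 8 ER genes that were higher (22.8% of all genes) and 23 that were lower (25.6%). *Ern1* was at 20.01, 23, and 21.6 CPM after soluble OVA and 35.7, 33.6, and 29.8 after OVA NPs (0.63 ± 0.11 (SE), adjusted p = 0.00261), with no overlap. *Ddit3* was at 15.8, 13.7, and 11.3 and 17.1, 22, and 21.2 CPM (0.57 ± 0.16 (SE), adjusted p = 0.0238). *Pdia4* (0.36), *Hsp90b1* (0.33), and *Ero1l* (0.29) were the other genes called higher. With 1 library removed, the calls of *Pdia4* and *Ero1l* each disappeared in 5 of 6 refits, and that of *Ddit3* in 4.

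The genes called lower after OVA NPs were led by *Sdf2l1* (-0.55 ± 0.093 (SE), adjusted p = 0.00263), *Sar1b* (-0.47 ± 0.12 (SE), adjusted p = 0.0151), and *Sec61g* (-0.41 ± 0.10 (SE), adjusted p = 0.0139), and 6 of 12 translocation genes were among them. *Sec61b* (-0.37), *Srp9* (-0.34), and *Ssr1* (-0.34) came next. Proliferation genes were lower for 12 of 12 and germinal center genes for 10 of 12 in the same comparison, with sums of 1600, 2243, and 2331 and 1387, 2129, and 2083 CPM in the 3 OVA NP libraries. The first of these libraries had the lowest sum of both lists. Dendritic cell markers were called higher for 5 and lower for 1 of 6, with 57.8 to 60.8 CPM after soluble OVA and 88.7 to 93.5 after OVA NPs. Monocyte and macrophage markers were called higher for 3 of 7 and neutrophil markers for 2 of 3, where 13.8% of all genes were called higher. The neutrophil markers were low, with sums of 1.96 to 3.57 CPM after soluble OVA and 5.79 to 19.9 after OVA NPs. T cell markers were called higher for 5 and lower for 1 of 8, although their sum was lower, with 163 to 183 CPM after soluble OVA and 136 to 147 after OVA NPs. The part of these cell types was not tested. Without the second soluble OVA library, 10 of the 55 genes were called, 3 higher and 7 lower.

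**Figure D4:**
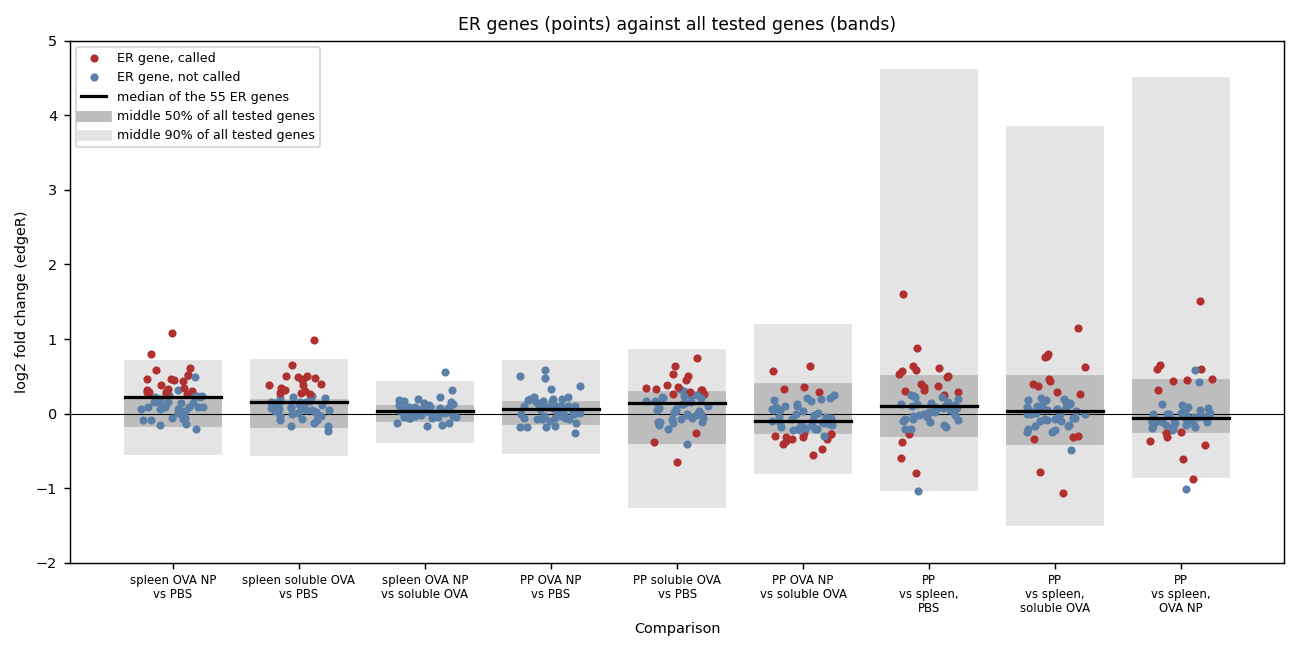
Log2 fold changes (edgeR) of the 55 ER genes (points, red where called) in 9 comparisons, with their median as a bar, over the range of all tested genes (light band, middle 90%; dark band, middle 50%). The median of the ER genes was 0.22 and 0.15 in the spleen comparisons with PBS, and -0.10 in PP between OVA NPs and soluble OVA.

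PP and spleen B cells were compared within each treatment. Among PBS-treated mice, 20 of the 55 genes were called (36.4%), 16 higher and 4 lower in PP, against 45.6% of all 15463 tested genes. After soluble OVA 16 were called, 11 higher and 5 lower (29.1%, against 51.1%), and after OVA NPs 15, 8 higher and 7 lower (27.3%, against 37.1%). With DESeq2's size factors the split after OVA NPs was 9 higher and 5 lower. Counted in both directions together, the shares of ER genes were below the background in all 3 comparisons. Of all genes, 25.5%, 26.7%, and 22% were called higher, and 20.1%, 24.3%, and 15.1% lower, after PBS, soluble OVA, and OVA NPs. The PP and spleen libraries did not overlap for 23 genes higher in PP and 9 lower after PBS (30.6% and 29.6% of all genes), 16 and 9 after soluble OVA (32.1% and 30.5%), and 8 and 24 after OVA NPs (24.6% and 30%). The medians over the 55 genes were 0.11, 0.041, and -0.064.

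*Sec24d* was the gene with the largest excess in PP, at 21.8, 18.2, and 27 CPM in PP and 8.19, 5.86, and 8.5 in the spleen after PBS. Its log2 fold changes were 1.60 ± 0.19 (SE), adjusted p = 1.36e-04 after PBS, 1.14 after soluble OVA, and 1.51 after OVA NPs. The *Sec24d* call after soluble OVA disappeared in 2 of 6 refits with 1 library removed and with no filter on low counts. *Pdia4* was the gene furthest in the opposite direction among those called, at 74.4, 73.8, and 71.8 CPM in PP and 124, 128, and 135 in the spleen after PBS (-0.80 ± 0.057 (SE), adjusted p = 3.75e-06). It was also lower in PP after soluble OVA (-1.06) and after OVA NPs (-0.88).

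The regulators differed by tissue in opposite directions. *Atf6*, the gene of the sensor ATF6, was at 115, 115, and 105 CPM in the spleen and 65.9, 78.8, and 74.1 in PP after PBS (-0.60 ± 0.073 (SE), adjusted p = 1.19e-04), and its log2 fold changes after soluble OVA and OVA NPs were -0.78 and -0.61. *Atf4* was at 209, 197, and 187 CPM in the spleen and 256, 307, and 284 in PP (0.53 ± 0.072 (SE), adjusted p = 2.23e-04), with 0.44 and 0.43 after soluble OVA and OVA NPs. *Ern1* was called only after OVA NPs (0.66 ± 0.10 (SE), adjusted p = 9.58e-04), and *Ddit3* after PBS (0.49) and OVA NPs (0.60) but not after soluble OVA (-0.16). *Eif2ak3* was called after PBS (0.40) and soluble OVA (0.80). After OVA NPs it had 0.58 and was not called, with 110, 189, and 184 CPM in PP and 106, 107, and 120.3 in the spleen. There it was called with DESeq2, with DESeq2's size factors, in 1 fit to all 18 libraries, with a replicate block, and without the first PP library. The *Eif2ak3* call after PBS was lost in 1 fit to all 18 libraries.

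*P4hb*, the founding protein disulfide isomerase, was at 279, 219, and 351 CPM in the PP libraries after PBS, 254, 488, and 312 after soluble OVA, and 376, 263, and 312 after OVA NPs, while the 9 spleen libraries lay between 175 and 229.7. Only the lowest PP library, after PBS, fell within that range. In the same libraries, in the same order, the epithelial markers summed to 528, 226, and 769, 287, 1165, and 1016, and 1066, 540.2, and 655 CPM. The lowest and highest *P4hb* values within each treatment fell in the libraries with the lowest and highest epithelial sums. *Sec24d* followed the same order after PBS, soluble OVA, and OVA NPs, with 16.8, 37.1, and 24.6 CPM after soluble OVA and 31.5, 26.1, and 28.9 after OVA NPs. The part of epithelial RNA in these differences was not tested. The call of *P4hb* after PBS disappeared in 3 of 6 refits with 1 library removed and that after soluble OVA in 4, and both with no filter on low counts. Immediate-early, germinal center, and proliferation genes were each called higher in PP for 12 of 12 after PBS, where 25.5% of all genes were called higher. Plasma cell markers were called higher for 9 of 11, with 1238 to 1430 CPM in PP and 579.8 to 649 in the spleen, and T cell markers were called higher for 5 and lower for 1 of 6. The part of these markers was not tested either.

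The other genes with the largest differences between tissues belonged to several roles. *Sdf2l1* was higher in PP after PBS (0.88) and soluble OVA (0.62) and had 0.014 ± 0.10 (SE), adjusted p = 0.924 after OVA NPs. *Sar1b* was higher in PP after all 3 treatments (0.51, 0.76, and 0.46). *Edem1* was too (0.57, 0.46, and 0.32). *Herpud1*, an anchor of the degradation complex, was called after PBS alone (0.59) in the reported fits. After OVA NPs it had 0.42, with 124, 208, and 207 CPM in PP and 133, 139, and 141 in the spleen. It was called there with DESeq2 and without the first PP library, and after soluble OVA without the third PP library. *Dnajb9*, an HSP40 cochaperone, was called after PBS (0.61) and OVA NPs (0.45). The *Dnajb9* call after OVA NPs disappeared in 4 of 6 refits with 1 library removed.

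Genes lower in PP included *Sec63* after PBS (-0.37), *Sec62* after soluble OVA (-0.34), and *Sec11c*, a catalytic subunit of signal peptidase, after PBS (-0.27) and soluble OVA (-0.31). *Hsp90b1* was lower in PP after soluble OVA (-0.30). After OVA NPs, *Ddost* (-0.41), *Ssr2* (-0.36), *Spcs3* (-0.32), *Rpn2* (-0.26), and *Rpn1* (-0.25) were lower. The calls of *Rpn1* and *Rpn2* each disappeared in 3 of 6 refits with 1 library removed, with DESeq2's size factors, and with no filter on low counts, and that of *Rpn1* also with DESeq2.

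**Figure D5:**
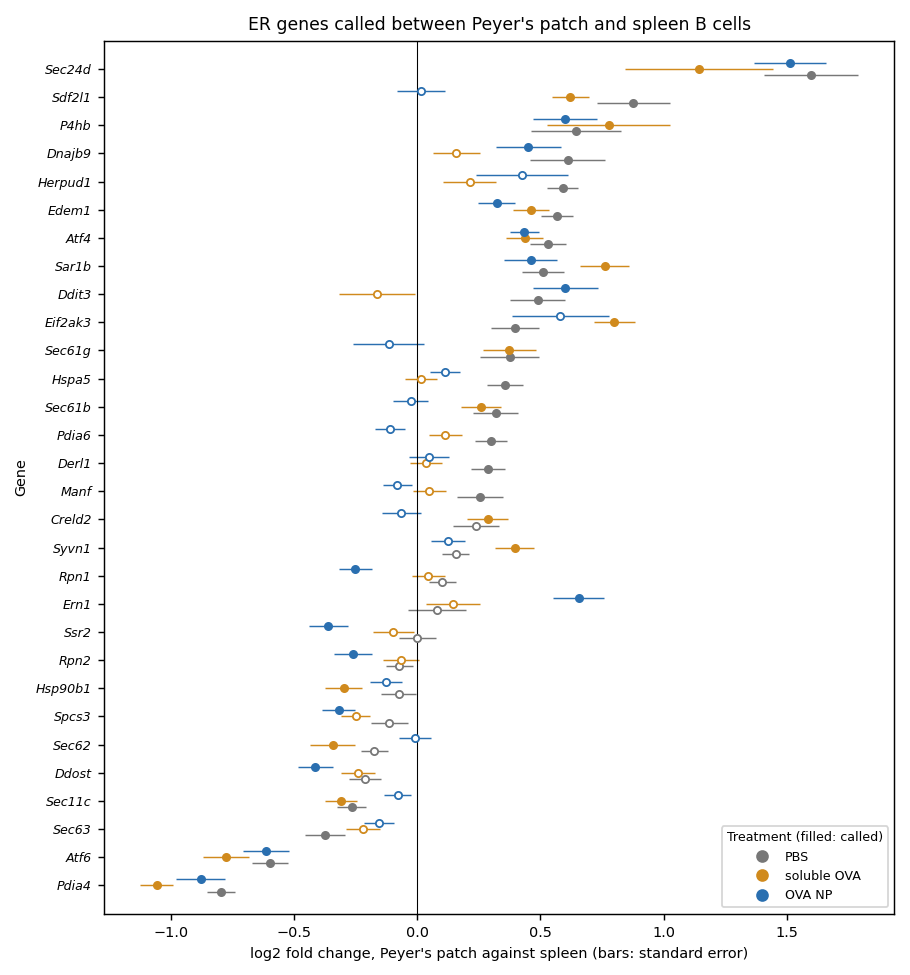
Log2 fold change (edgeR, with SE) between PP and spleen B cells for each ER gene called in at least 1 of the 3 treatments, with filled points where called. *Sec24d* lies furthest to the right and *Pdia4* furthest to the left in all 3 treatments.

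Whether the effect of OVA NPs differed between tissues was tested as an interaction in 12 libraries. It was called for 4 of the 55 genes (7.27%), against 4.42% of all 16619 tested genes (0.872% higher and 3.54% lower), and each had a smaller log2 fold change in PP than in the spleen. *Sdf2l1* had an interaction of -0.87 ± 0.19 (SE), adjusted p = 0.0197. *Pdia6* had -0.42 ± 0.089 (SE), adjusted p = 0.0169, *Rpn1* -0.36 ± 0.084 (SE), adjusted p = 0.0258, and *Calr* -0.29 ± 0.077 (SE), adjusted p = 0.049. The call of *Calr* disappeared in 11 of 12 refits with 1 library removed, that of *Rpn1* in 7, that of *Pdia6* in 5, and that of *Sdf2l1* in 2. Without the first spleen OVA NP library, or without the first PP PBS library, 0 of the 55 genes were called. All 12 germinal center genes, all 12 proliferation genes, and 4 of 11 plasma cell genes were also called with a lower effect in PP, and their part was not tested.

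For soluble OVA the interaction gave 0 calls among the 55 genes, against 6.84% of all 16541 tested genes (1.77% higher and 5.07% lower). At an unadjusted p under 0.05 there were 10 (21% of all genes), and DESeq2 called 4, *Hspa5*, *Calr*, *Syvn1*, and *Eif2ak3*. *Ddit3* had the smallest adjusted p, at -0.64 ± 0.19 (SE), adjusted p = 0.061.

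The wider pathway was covered by 145 other genes in 7 lists. In the spleen 19 were called higher and 1 lower of 139 tested after OVA NPs (14.4%, against 15% of all genes), and 16 higher and 1 lower of 138 after soluble OVA (12.3%, against 17.2%). In PP there were 0 of 143 after OVA NPs, and 30 higher and 8 lower of 143 after soluble OVA (26.6%, against 27.4%). Counted in both directions together, these shares were near or below the background. By direction they were uneven, since most of the calls were higher. Of all genes, 8.6% were called higher and 6.35% lower in the spleen after OVA NPs, and 10.5% and 6.72% after soluble OVA. In PP after soluble OVA the shares of all genes were 13.5% higher and 13.9% lower. Targets of ATF4, which control amino acid supply and stress signaling, were called higher for 8 of 23 in the spleen after OVA NPs. That is 34.8%, against 8.6% of all genes called higher. After soluble OVA, 6 of 23 were called higher (26.1%, against 10.5%). In PP 0 of 27 were called after OVA NPs, and 11 were higher and 4 lower of 27 after soluble OVA (55.6%, against 27.4%). Between OVA NPs and soluble OVA in PP, 1 was higher and 10 lower of 26 (42.3%, against 30.1%).

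*Xbp1*, whose spliced mRNA encodes the transcription factor downstream of IRE1, was at 64.4, 56.4, and 64.6 CPM in the spleen after PBS and 117, 101, and 106 after OVA NPs (0.81 ± 0.07 (SE), adjusted p = 6.52e-06). After soluble OVA its log2 fold change was 0.62, and in PP it was 0.27 after OVA NPs and -0.036 after soluble OVA, neither of them called. Gene counts do not separate spliced from unspliced *Xbp1*. *Derl3*, a degradation channel gene of secretory cells, rose in the spleen by 0.84 after OVA NPs and 0.72 after soluble OVA. *Mzb1*, a BiP partner in antibody assembly, had 0.61 in PP after soluble OVA and -0.11 after OVA NPs. *Fkbp11* (0.52) and *Txndc5* (0.20) were not called in the spleen after OVA NPs.

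*Asns*, asparagine synthetase and a target of ATF4, had 0.58 ± 0.33 (SE), adjusted p = 0.307 in the spleen after OVA NPs and 1.23 ± 0.13 (SE), adjusted p = 2.35e-04 in PP after soluble OVA. *Trib3* (0.78 in the spleen after OVA NPs) was not called, and *Chac1* had too few counts to be tested in the spleen.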

How the data were processed

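Bulk RNA-Seq was analysed for 18 libraries of splenic and PP B cells, grouped by the tissue and treatment in the labels. According to the study's methods, RNA was sequenced as 151 bp paired ends. The authors trimmed reads with cutadapt 2.3, aligned them to GRCm38 with STAR 2.7.8a, and estimated gene counts with RSEM 1.3.3. The deposited values are expected counts without normalization, and 0 of them were not whole numbers. BALB/cJ reads were mapped to the reference of another strain, and the strand setting of the counting is not given in the sources used here.

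Each comparison was fitted to its own libraries in edgeR 4.0.16 (R 4.3.3) after filterByExpr (minimum count 10, minimum total 15), TMM, and a robust quasi-likelihood fit, and p-values were adjusted by Benjamini-Hochberg across every gene in the fit. A call needed an adjusted p under 0.05 together with a log2 fold change beyond 0.25 in either direction; interactions needed the first only. SEs were derived from the F statistics. Levels are CPM with TMM factors over 18 libraries, and levels per kb use merged exon lengths of GENCODE vM21. DESeq2 1.42.0, its size factors in edgeR, no count filter, no fold cutoff, 1 fit to all 18 libraries, a replicate block, CPM on raw library totals, and leaving out each library were the alternatives. The steps were tested on simulated data. Replicates differed by more than sampling noise in all 18 pairs, with a chi-square per gene of 4.72 to 41.3. Nothing used here ties libraries to individual animals beyond the replicate label, so p-values measure the spread between these libraries.

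The 55 genes, the lists, and the tests were chosen with earlier results of these data known. Genes named with values were 19 fixed genes, up to 6 called genes in each direction per comparison with the largest changes, and 8 genes of the wider pathway; other names complete a role or were chosen after their values were seen. *Ddit3* has 2 rows in the table, and the row with counts was used.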

Additional observations from a re-analysis of the deposited data

Results flagged for a closer look

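The effect of OVA NPs differed between tissues by the interaction test for 4 of the 55 genes, against 4.42% of all 16619 tested genes, each with a smaller log2 fold change in PP than in the spleen. The interaction was -0.87 for *Sdf2l1*, -0.42 for *Pdia6*, -0.36 for *Rpn1*, and -0.29 for *Calr*, and it was the only kind of result singled out, since groups of 3 libraries are too small for a test of outlying samples. *Sdf2l1* had a log2 fold change of 1.09 in the spleen and 0.20 in PP, and the PP libraries of PBS-treated mice already lay above those of the spleen. With 1 library removed, 0 to 6 of the 55 genes were called. The call of *Calr* was lost in 11 of these 12 refits, that of *Rpn1* in 7, that of *Pdia6* in 5, and that of *Sdf2l1* in 2.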

How the results depend on the processing

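No called gene changed direction under any alternative run. Of the 128 calls of a gene in a comparison, the alternatives gave 1556 values, of which 1385 kept the call, 171 lost it, and 0 reversed, and the sign of an uncalled value changed in 347 of 6254 cases. The number of genes called moved by more than 1.5 times in few settings. In PP, OVA NP against PBS gave 3 calls with DESeq2, 3 with no count filter, and 3 with 1 fit to all 18 libraries, where the reported fit gave 0. The interaction for soluble OVA gave 4 calls with DESeq2 and 1 with no count filter, against 0. DESeq2's size factors moved the median of all genes by at most 0.0217 and gave 15 higher and 1 lower in PP for soluble OVA against PBS, and 9 higher and 5 lower between tissues after OVA NPs. CPM on raw library totals gave summed levels of 6829 in the spleen after PBS, 7635 after soluble OVA, and 7992 after OVA NPs, and 7497 in PP after soluble OVA, where the reported means were 6643, 7532, 7830, and 7765. The cause of these differences was not tested.

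Leaving out each library in turn gave 19 to 24 calls for OVA NPs and 15 to 20 for soluble OVA against PBS in the spleen, 0 to 0 between them, 0 to 0 for OVA NPs and 14 to 21 for soluble OVA against PBS in PP, and 10 to 19 between them. Between tissues it gave 16 to 20 after PBS, 12 to 17 after soluble OVA, and 12 to 17 after OVA NPs. The interaction gave 0 to 6 calls for OVA NPs and 0 to 2 for soluble OVA. It fell to 2 without the first spleen PBS library, 1 without the second, 1 without the second spleen OVA NP library, and 1 without the second PP OVA NP library. A group left with 2 libraries was assumed to vary like the others.

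Replicate numbers were not shown to pair the libraries, since in no comparison did all 3 same-numbered pairs correlate above 0.1 (mean r from -0.32 to 0.079). With a replicate block, PP OVA NP against soluble OVA gave 6 calls and the interaction for OVA NPs gave 2. Depth limited *Pdia5* most, at 3 to 34 counts.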
